A study of Mus musculus with 96 samples.

Results

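The genes described here are 10 genes of endothelium and of the VEGF pathway: Flt1, Kdr, Tie1, Tek, Pecam1, Cdh5, Plvap, Vegfa, Vegfb and Esm1. They were taken as all probes whose platform symbol was one of these names, which gave 14 of the 25697 probes on the array. Their RNA was followed on Illumina bead arrays in male mice, in liver, in skeletal muscle, in brown fat (BAT, brown adipose tissue) and in epididymal white fat (eWAT). SIRT1Tg mice (SIRT1Tg/Tg in the labels) ate a low fat diet freely. CR mice were C57/Bl6 wild types kept for 3 months on a caloric restriction that the labels call EODF without spelling it out. EX mice were C57/Bl6 wild types that had a running wheel cage for 10 weeks and ate the low fat diet freely. WT mice were C57/Bl6, ate the same diet freely and had no wheel. Each tissue had 6 arrays per group, from 27 animals in all, and each mouse had fasted for 12 hours when it was killed at 8 a.m. Neither the age of the mice nor the promoter of the transgene is given in the labels.

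Blood vessels are lined by endothelial cells, whose growth and permeability are controlled by the VEGF family. VEGF-A, made mainly by parenchymal cells, signals through the tyrosine kinase receptor encoded by Kdr and also binds the receptor encoded by Flt1, which takes up ligand with little signalling of its own. VEGF-B, abundant in tissues with high oxidative metabolism, binds the Flt1 product and not the Kdr product. Tek encodes the angiopoietin receptor and Tie1 its partner receptor, both of which keep vessels stable. Pecam1 and Cdh5 (VE-cadherin) encode adhesion proteins of endothelial junctions, Plvap the protein that forms the diaphragms of fenestrae and caveolae, and Esm1 (endocan) a secreted proteoglycan of endothelial cells at growing vessel tips.

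The RefSeq promoter table of GRCm38.p6 held entries for 7 of the 10 genes. The 250 bases upstream of the start of the 3 genes whose probes rose together in muscle of EX mice are shown so that they can be compared. They lie on the minus strand at chr5:147726012-147726261 (Flt1), chr4:118489850-118490099 (Tie1) and chr19:6987652-6987901 (Vegfb), and are written 5′ to 3′ along each gene. Capitals mark matches, on either strand, to 4 motifs: the nuclear receptor half-site AGGTCA, the ETS site CCGGAA, the hypoxia response core ACGTG and the TATA element TATAAA.
Flt1 upstream: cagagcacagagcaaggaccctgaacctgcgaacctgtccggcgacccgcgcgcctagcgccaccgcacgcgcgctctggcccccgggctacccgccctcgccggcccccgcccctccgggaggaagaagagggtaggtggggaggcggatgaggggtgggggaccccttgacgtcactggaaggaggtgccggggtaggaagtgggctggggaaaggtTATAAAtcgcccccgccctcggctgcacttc
Tie1 upstream: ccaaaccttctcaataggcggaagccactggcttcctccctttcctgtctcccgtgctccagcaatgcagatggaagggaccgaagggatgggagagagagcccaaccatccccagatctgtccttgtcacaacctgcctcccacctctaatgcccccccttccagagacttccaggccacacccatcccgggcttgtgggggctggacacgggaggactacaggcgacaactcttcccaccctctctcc
Vegfb upstream: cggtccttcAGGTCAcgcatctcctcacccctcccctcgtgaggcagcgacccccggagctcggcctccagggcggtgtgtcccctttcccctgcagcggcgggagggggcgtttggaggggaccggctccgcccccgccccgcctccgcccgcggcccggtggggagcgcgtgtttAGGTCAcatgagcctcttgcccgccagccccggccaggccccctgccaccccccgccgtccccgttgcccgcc

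The GC content of these windows was 70.4% for Flt1, 60.4% for Tie1 and 76.4% for Vegfb. Vegfb held 2 matches to AGGTCA, a motif found in 14% of the 32851 upstream windows of the same length. Flt1 held 1 TATAAA, which ended 25 bases before the start and was found in 12.4% of windows. None of the 3 windows held CCGGAA (12% of windows) or ACGTG (16.6%). The 3 sequences thus shared none of these 4 exact motifs. Other forms of the same sites, ETS sites among them, were not searched.

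Levels are given as quantile-normalised log2 signals; an offset of 16 was added when the background was corrected, so a probe without signal sits near 4 and differences of dim probes are understated. Where a gene had several probes they are called A, B and C in the order of their probe numbers. Flt1 A (ILMN_1227926), Plvap (ILMN_2984110), Vegfa A (ILMN_2484527) and Vegfb (ILMN_2450384) were detected above background on 96 of 96 arrays. Tek (ILMN_1220170) was detected on 95, Pecam1 A (ILMN_2700982) on 95, Pecam1 B (ILMN_3147074) on 94, Vegfa C (ILMN_3121255) on 95, Cdh5 (ILMN_2866951) on 91 and Tie1 (ILMN_2928560) on 90. Esm1 (ILMN_1257574) was detected on 65 arrays, of which 1 was from BAT. Flt1 B (ILMN_2732721) was detected on 22 arrays and Kdr (ILMN_2665788) on 19, so within single tissues the receptor that carries most VEGF-A signalling was tested in eWAT alone. Vegfa B (ILMN_3045723) was not above background on any array. A probe had to be detected on at least 6 of a tissue's 24 arrays to be tested. By this minimum 11 of the 14 probes were tested in liver and 11 in muscle, with 10 for BAT and 13 for eWAT.

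Liver arrays had 5841 to 12752 detected probes each and muscle arrays 8427 to 12321. BAT arrays had 11536 to 12847 and eWAT arrays 13130 to 15381. The lowest count, 5841, was that of a SIRT1Tg liver. Sirt1 was 1.83 ± 0.12 log2 units (SE, n = 6 each) higher in SIRT1Tg than in WT muscle, 1.37 ± 0.095 higher in BAT and 2.58 ± 0.11 higher in eWAT, with adjusted p under limma of 4.7e-10, 1.53e-09 and 8.63e-13. In liver it was 0.86 ± 0.32 higher and did not pass (adjusted p = 0.386). Most defining genes were high in their own tissue, such as Ttr (13.58 ± 0.07 in WT liver; SD, n = 6), Ckm (13.71 ± 0.05 in WT muscle), Ucp1 (13.39 ± 0.41 in WT BAT) and Lep (12.52 ± 0.58 in WT eWAT). There were exceptions: the hepatocyte gene Alb was dim in WT liver (4.73 ± 0.26, detected on 4 of 6 arrays), Tat was not above background there, and Elovl3, listed for brown fat, was higher in WT liver (8.59 ± 0.39) than in WT BAT (6.68 ± 0.93). The myofibre gene Acta1 was also at 10.68 ± 1.03 in WT eWAT and at 8.56 ± 3.20 in WT BAT. Animal numbers fell into 2 series, A and B, whose meaning the labels do not give; all EX animals are in A and all CR animals in B, so series entered every fit as a term. WT had 3 arrays of each series in every tissue, so fits within a series set 6 EX or CR arrays against 3 of WT. Of 6 EX arrays in each tissue 1 shared a slide with a WT array of that tissue, and likewise for CR.

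In WT mice Flt1 A, Tek, Cdh5 and both Pecam1 probes were lowest in liver and highest in the adipose tissues, in a fit over all 96 arrays normalised together (limma, Benjamini-Hochberg over 18415 probes). For Flt1 A the mean was 7.37 ± 0.13 for liver, 9.02 ± 0.14 for muscle, 9.44 ± 0.31 for BAT and 9.45 ± 0.53 for eWAT (SD, n = 6). Liver was 3.13-fold below muscle (adjusted p = 3.14e-15) and muscle 1.34-fold below BAT (adjusted p = 0.0249), and BAT and eWAT could not be separated (adjusted p = 0.978). Cdh5 ran in the same order, at 4.69 ± 0.18, 5.57 ± 0.14, 6.21 ± 0.32 and 6.34 ± 0.56 in liver, muscle, BAT and eWAT, and BAT against eWAT was the 1 pair that did not pass (adjusted p = 0.649). Tek had the same order, 6.27 ± 0.24, 6.82 ± 0.16, 7.70 ± 0.24 and 7.82 ± 0.12, and BAT against eWAT did not pass (adjusted p = 0.701). Both Pecam1 probes were lowest in liver and highest in eWAT; Pecam1 A in liver was 4.52-fold below eWAT (adjusted p = 1.05e-15) and Pecam1 B 3.87-fold (adjusted p = 5.54e-16), and for Pecam1 B liver and muscle were not separated beyond their spread (adjusted p = 0.0731).

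Tie1, Plvap, Vegfb and Esm1 had orders of their own. For Tie1 the mean was 4.86 ± 0.30 for liver, 5.03 ± 0.32 for muscle, 5.85 ± 0.13 for BAT and 5.41 ± 0.32 for eWAT, with liver and muscle not separated (adjusted p = 0.428). BAT was above eWAT for Tie1 (0.43 ± 0.16, adjusted p = 0.0272), an order that turned under median scaling (-0.0939, adjusted p = 0.631). Plvap was high in liver (8.71 ± 0.33) and eWAT (8.83 ± 0.42), which could not be separated (adjusted p = 0.673), and low in muscle (7.49 ± 0.30) and BAT (7.24 ± 0.21), nor could these (adjusted p = 0.327). Liver was 2.33-fold above muscle for Plvap (adjusted p = 7.1e-08). What sets the level of Plvap in these tissues was not tested.

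Of the ligands, Vegfb was lowest in liver. For Vegfb the mean was 8.05 ± 0.39 for liver, 11.23 ± 0.09 for muscle, 11.29 ± 0.26 for BAT and 10.72 ± 0.16 for eWAT. Liver was 9.05-fold below muscle (adjusted p = 6.32e-29), 9.45-fold below BAT and 6.35-fold below eWAT. Muscle and BAT could not be separated for Vegfb (adjusted p = 0.849), and eWAT was below both. Vegfa A had a narrower range, 8.89 ± 0.35 for liver, 9.43 ± 0.50 for muscle, 9.89 ± 0.29 for BAT and 9.58 ± 0.69 for eWAT; liver was below BAT (adjusted p = 0.00191) and below eWAT (1.62-fold, adjusted p = 0.0337), and no other pair passed. Vegfa C was highest in BAT (7.99 ± 0.34), 1.77-fold above eWAT (adjusted p = 0.0151). For Vegfa C muscle was 2.61-fold below BAT (adjusted p = 2.61e-05) and liver 2.36-fold below BAT (adjusted p = 0.000163), while liver passed neither against muscle (adjusted p = 0.723) nor against eWAT (adjusted p = 0.246). Esm1 was dim throughout, at 5.37 ± 0.80 for liver, 4.90 ± 0.51 for muscle, 4.31 ± 0.20 for BAT and 4.72 ± 0.32 for eWAT. Liver passed against BAT (adjusted p = 0.000161) and eWAT (adjusted p = 0.0205), and muscle against BAT (adjusted p = 0.0452). Kdr was within 4.32 and 4.43 in the 4 tissues and no pair passed.

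**Figure D1:**
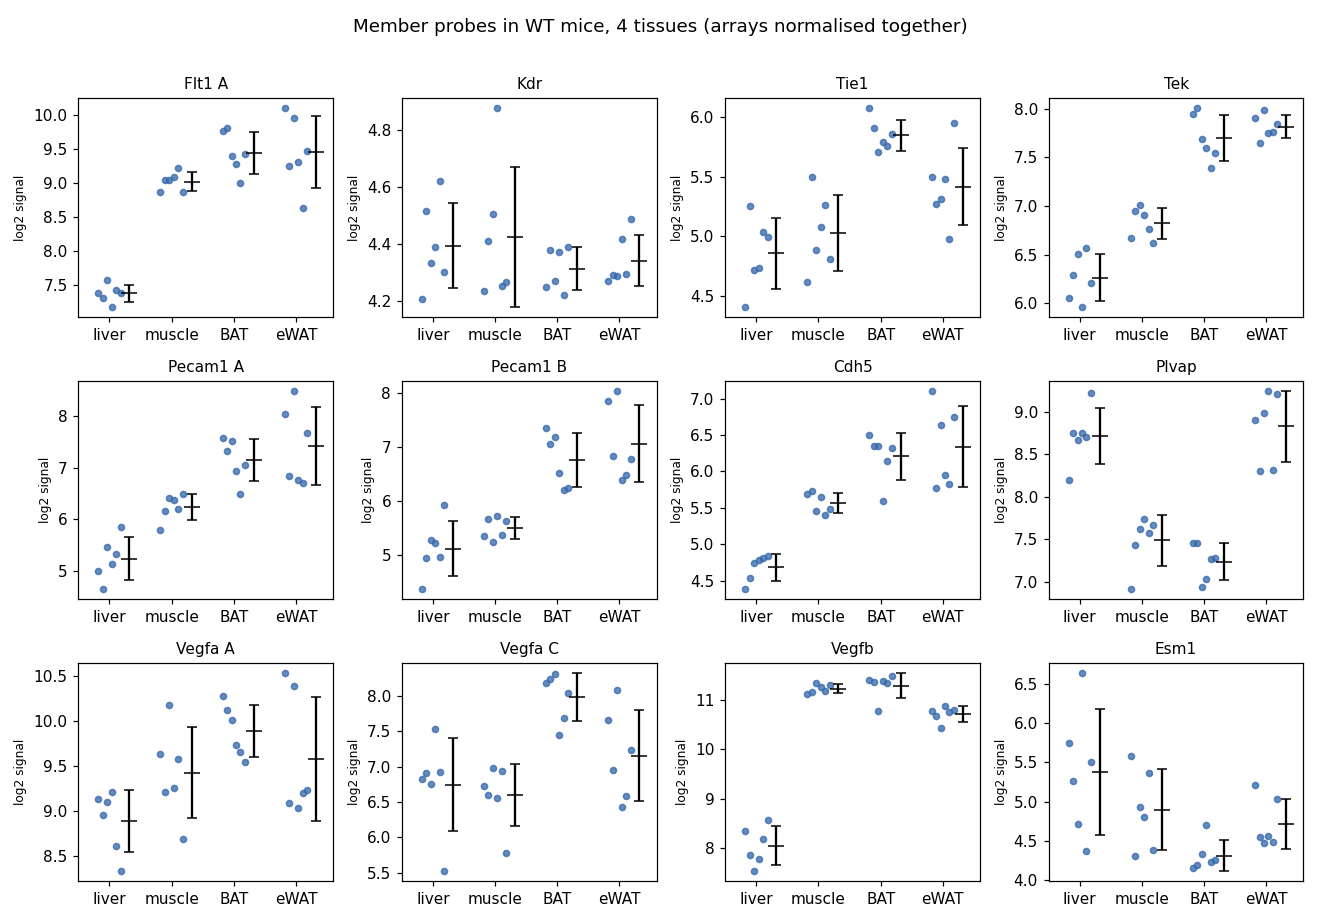
Log2 signal (vertical axis) of 12 probes in liver, muscle, BAT and eWAT of WT mice, arrays normalised together. Points are single animals, 6 per tissue, and bars are mean and SD. Flt1 A, Tek, Pecam1 and Cdh5 climb from liver to the adipose tissues, Plvap is high in liver and eWAT, and Vegfb stands near 8 in liver and near 11 elsewhere.

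Of the 13 probes tested in that fit, 6 differed between WT liver and muscle, where 54.9% of all probes did. Between WT liver and BAT 11 of 13 differed, against 45.6% of all probes. Between WT liver and eWAT 10 of 13 differed, against 50.5%. Muscle differed from BAT for 8 of 13, against 46.2%, and from eWAT for 8 of 13, against 56.9%. BAT and eWAT differed for 4 of 13, against 40.3%. In the comparisons of liver with BAT and with eWAT 9 of the probes that differed were lower in liver in each. In a bulk tissue a lower level of an endothelial transcript in liver cannot tell fewer endothelial cells from less RNA per cell. The same limit holds for every difference of an endothelial transcript below. For the ligand genes Vegfa and Vegfb, bulk RNA likewise cannot tell a change of cell content from a change of RNA per cell.

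In skeletal muscle 3 of these genes were higher in running mice. Vegfb, Flt1 and Tie1 were higher in EX muscle, by 1.53-fold to 1.73-fold, and 9 of the 11 tested probes lay above WT. Vegfb signals spanned 11.43 to 11.85 in EX muscle (median 11.65), against 10.86 to 11.07 in WT muscle (median 10.95). The lowest EX animal was above the highest WT animal, so the groups did not overlap. The log2 difference was 0.70 ± 0.11 (SE, n = 6 each; limma, adjusted p = 0.01). Flt1 A spanned 9.01 to 9.88 in EX muscle (median 9.49), against 8.52 to 8.90 in WT muscle (median 8.71). These groups were also apart, with a log2 difference of 0.79 ± 0.17 (adjusted p = 0.0227). Tie1 spanned 5.03 to 5.63 in EX muscle (median 5.29), against 4.45 to 5.10 in WT muscle (median 4.68). For Tie1, 5 of 6 EX animals were above every WT animal, and the log2 difference was 0.61 ± 0.14 (adjusted p = 0.0297). This probe is dim, and for Tie1 the size depended on the background step: the difference was 0.30 with an offset of 50 (adjusted p = 0.0331), 0.25 in the deposited matrix (adjusted p = 0.0375) and 0.18 with no background correction (adjusted p = 0.0367).

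The other receptor and junction genes lay on the same side without passing the test. Tek was 0.39 ± 0.14 above WT (adjusted p = 0.166), at 6.67 to 6.93 in EX muscle, against 6.20 to 6.61 in WT muscle. Pecam1 A was 0.54 ± 0.17 above WT (adjusted p = 0.105) and Cdh5 0.41 ± 0.19 above WT (adjusted p = 0.291). Pecam1 B, a probe annotated to another Pecam1 transcript, was 0.05 ± 0.17 above WT (adjusted p = 0.922), so the probes of this gene disagreed in size. The other ligand gave a different picture from Vegfb: Vegfa A spanned 7.99 to 9.47 in EX muscle, against 8.33 to 9.92 in WT muscle, with a log2 difference of -0.18 ± 0.28 (adjusted p = 0.824). Plvap (0.07 ± 0.17) and Esm1 (0.08 ± 0.19) were close to WT.

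**Figure D2:**
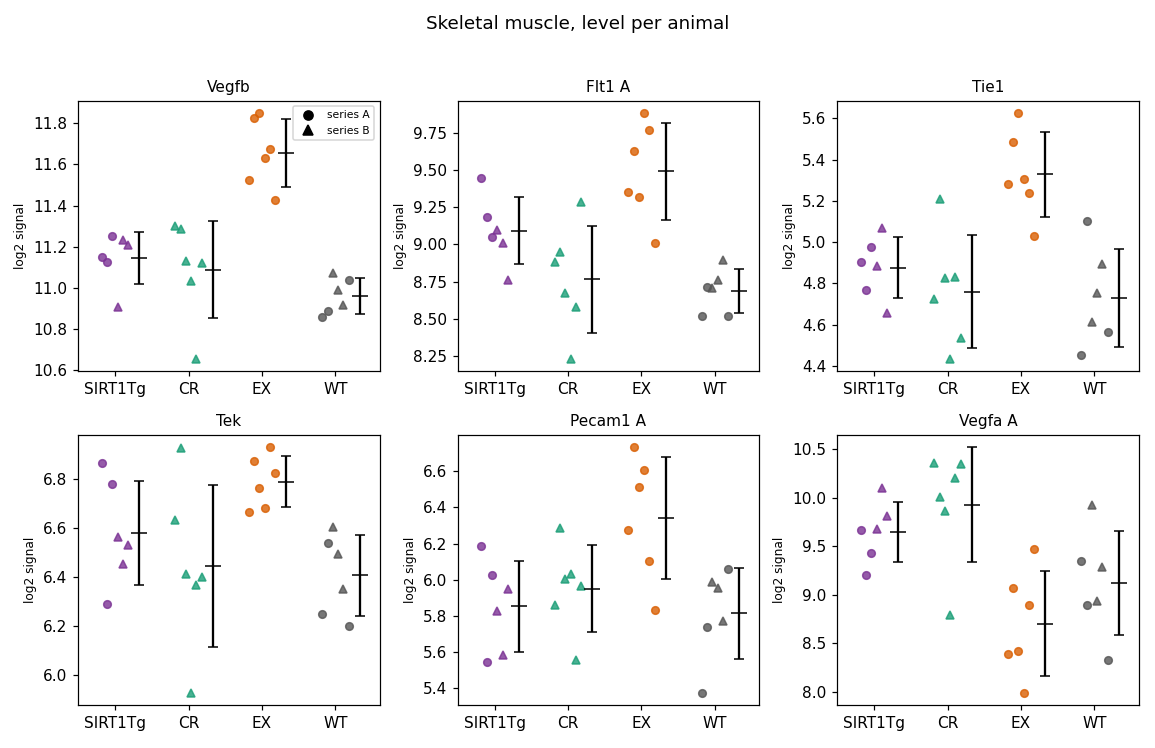
Log2 signal (vertical axis) of 6 probes in skeletal muscle of SIRT1Tg, CR, EX and WT mice. Points are single animals (circles series A, triangles series B) and bars are mean and SD, n = 6 per group. EX animals stand apart from WT for Vegfb, Flt1 A and Tek, of which Tek did not pass the test. For Tie1 1 WT animal is inside the EX range, and the groups overlap for Vegfa A.

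In all, 3 of 11 probes rose and none fell in EX muscle, where 1.7% of 12447 probes passed. At an unadjusted limma p under 0.05 it was 6 of 11, against 15.4% of all probes. Members and lists were chosen with earlier results of these data known. Their counts beside the shares of all probes, in every tissue, are therefore a description and no test of enrichment. How many of all probes had groups that did not overlap was not counted in any tissue. The median of the 11 was 0.39, against -0.01 over all probes. All EX animals are of series A, and within series A the log2 differences were 0.73 for Vegfb (adjusted p = 0.00421), 0.91 for Flt1 A (adjusted p = 0.0109) and 0.62 for Tie1 (adjusted p = 0.0369). All 3 calls were lost under median scaling, with log2 differences of 0.54, 0.59 and 0.50 for Vegfb, Flt1 A and Tie1 and adjusted p of 0.36, 0.442 and 0.193; that scaling also set the median of all probes to -0.10. Without 1 WT animal of series A no probe passed (Vegfb 0.66, adjusted p = 0.073; Flt1 A 0.73, adjusted p = 0.131; Tie1 0.52, adjusted p = 0.169). With single arrays left out in turn Vegfb kept its call in 11 of 12 fits, Flt1 A in 8 of 12 and Tie1 in 6 of 12. Flt1 A was lost without any of the 3 WT animals of series A or 1 EX animal (adjusted p = 0.0601 to 0.131), and Tie1 without 2 of those WT animals or any of 4 EX animals (adjusted p = 0.0509 to 0.169). Vegfb also missed the threshold in the fit over 4 tissues without slide (0.66, adjusted p = 0.0577).

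Slow fibre genes were also higher in EX muscle. Of 9 tested slow fibre genes 7 rose in EX muscle, among them Myl3, a slow myosin light chain (6.57 ± 1.19, adjusted p = 0.0126), and Tnnt1, slow troponin T (4.76 ± 0.99, adjusted p = 0.018). Their summed signal was 7086 to 23830 in EX muscle (median 12720), against 377 to 6530 in WT muscle (median 624.6). With the slow fibre level as a covariate the log2 differences were 0.42 for Vegfb, 0.75 for Flt1 A and 0.59 for Tie1. Without this covariate they were 0.70, 0.79 and 0.61. The adjusted p of each was 0.998 with it. The covariate was the mean log2 level of these genes on each array, not their summed signal. The summed slow fibre signals of EX and WT did not overlap. Slow fibre genes rose along with running, so this fit cannot tell running from slow fibre level. The part of a different fibre content of the sampled muscle in the result was not tested. Among pericyte and smooth muscle genes 1 of 11 rose, Rgs5, a pericyte gene (0.86 ± 0.21, adjusted p = 0.0362), and their summed signal was 1332 to 1614 in EX muscle, against 891.7 to 1454 in WT muscle. Of 7 myofibre genes 1 rose, the myoglobin gene Mb (0.67 ± 0.18, adjusted p = 0.0476), and 3 lay above WT (median -0.01). The nuclear receptor gene Esrrb rose by 1.55 ± 0.40 (adjusted p = 0.0449; 1 of 4 PGC-1 and ERR genes).

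Of 15 tested genes of endothelial identity 1 passed in EX muscle, the water channel gene Aqp1 (0.63 ± 0.16, adjusted p = 0.0389), and 13 lay above WT, with a median of 0.37. Against the same WT animals 13 of these 15 lay above WT in SIRT1Tg muscle (median 0.29) and 14 in CR muscle (median 0.22), with none passed. Of 7 liver sinusoidal endothelium genes 1 lay above WT in EX muscle (median -0.07). Of 9 endothelial transcription factor genes 7 lay above WT (median 0.17) and none passed. Of 11 further VEGF and angiopoietin ligands and co-receptors 8 lay above WT (median 0.27) and none passed. Of 12 hypoxia response genes 9 lay above WT (median 0.15) and none passed.

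In BAT Plvap was lower in running mice, and so was 1 of the 2 Pecam1 probes, a call that several alternatives ended. Plvap spanned 5.84 to 6.54 in EX BAT (median 6.27), against 6.83 to 7.36 in WT BAT (median 7.18). All 6 EX animals were below every WT animal. Its log2 difference was -0.98 ± 0.14 (SE, n = 6 each; limma, adjusted p = 0.000561), a level 0.51 times that of WT. In SIRT1Tg and CR BAT the same probe was at 7.02 to 7.71 and 6.98 to 7.48, both overlapping WT. Without the series term the difference was -0.88 (adjusted p = 0.000608), and within series A it was -0.92 (adjusted p = 0.0305). The size depended on the background step: with no background correction the difference was -0.56 (adjusted p = 0.00127), and it was -0.56 in the deposited matrix (adjusted p = 0.00115).

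Pecam1 B spanned 6.15 to 6.62 in EX BAT (median 6.43), against 6.09 to 7.25 in WT BAT (median 6.67), so the whole groups overlapped. WT animals were split by number series: those of series B were at 6.09 to 6.397 and those of series A at 6.94 to 7.25. The series term of Pecam1 B in BAT was -0.78 ± 0.12 for B minus A (adjusted p = 0.00175), and that of Pecam1 A -0.67 ± 0.13 (adjusted p = 0.00547); 763 of 13303 probes passed for this term in BAT. With the series in the fit Pecam1 B fell by 0.63 ± 0.14 on the log2 scale in EX BAT (adjusted p = 0.0105). Within series A, with 6 EX and 3 WT arrays, the groups did not overlap and the log2 difference was -0.69 (adjusted p = 0.0372). Without the series term the difference was -0.24 (adjusted p = 0.643), with slides entered as fixed effects it was -0.61 (adjusted p = 0.188), and in the fit over 4 tissues it was -0.62 (adjusted p = 0.134). With no background correction the difference of Pecam1 B was -0.36 (adjusted p = 0.00654). Pecam1 A lay below WT (-0.45 ± 0.14) and did not pass (adjusted p = 0.0763).

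**Figure D3:**
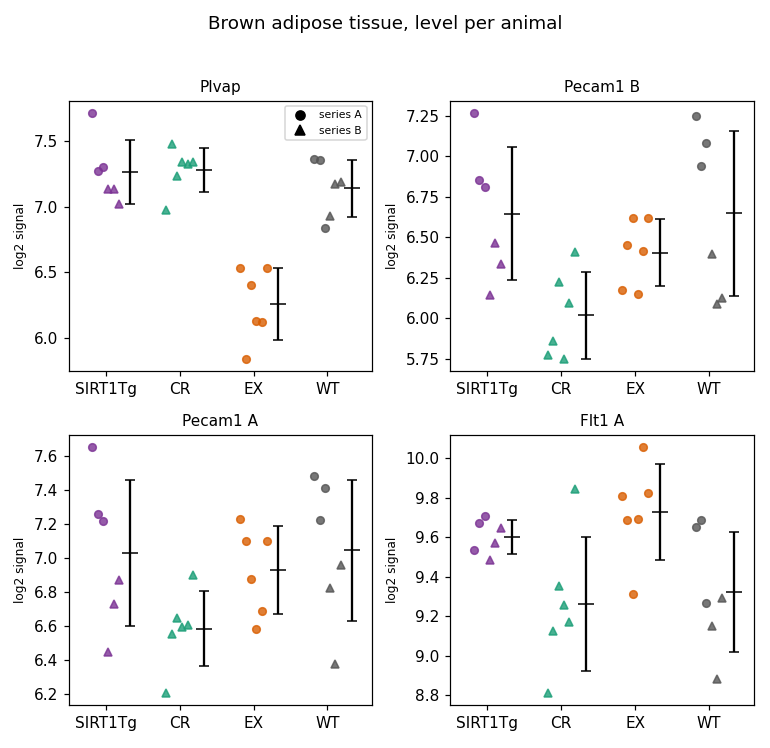
Log2 signal (vertical axis) of 4 probes in BAT of SIRT1Tg, CR, EX and WT mice. Points are single animals (circles series A, triangles series B) and bars are mean and SD, n = 6 per group. Plvap is below all WT animals in every EX animal, and the Pecam1 probes divide by number series in the WT and SIRT1Tg groups.

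Of the 10 probes tested in EX BAT 2 fell and none rose, where 3.83% of 13303 probes passed in both directions together. The median of the 10 was -0.21, against -0.01 over all probes. Flt1 A was 0.28 ± 0.15 above WT (adjusted p = 0.35) and Vegfa A 0.25 ± 0.15 above WT (adjusted p = 0.42). Tek (-0.26 ± 0.12, adjusted p = 0.231) and Tie1 (-0.25 ± 0.15, adjusted p = 0.398) lay below WT. Vegfb was close to WT (0.10 ± 0.11, adjusted p = 0.692).

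None of 17 endothelial identity genes passed in EX BAT, 3 lay above WT and their median was -0.18. Of 10 endothelial transcription factor genes 2 fell, Lmo2 (-0.64 ± 0.10, adjusted p = 0.00208) and Ets1 (-0.57 ± 0.14, adjusted p = 0.0215). Among 8 genes listed for liver sinusoidal endothelium 2 fell, Mrc1 (-0.94 ± 0.25, adjusted p = 0.0329) and Fcgr2b (-0.66 ± 0.18, adjusted p = 0.0345), and 2 lay above WT. That list is one for liver, and which cells of BAT held Mrc1 and Fcgr2b RNA was not tested. Lmo2, Mrc1 and Fcgr2b also fell in CR eWAT, as given below. The apelin receptor gene Aplnr fell by 0.71 ± 0.18 on the log2 scale (adjusted p = 0.0236; 1 of 12 in its list of ligands and co-receptors), and Nid2, a basement membrane gene, by 0.99 ± 0.14 (adjusted p = 0.000561; 1 of 11 Notch and tip cell genes, of which 7 lay above WT, median 0.07). Macrophage genes were also lower: 3 of 6 tested fell, C1qb (-1.27 ± 0.27, adjusted p = 0.0105), C1qc (-1.07 ± 0.26, adjusted p = 0.0214) and Lyz2 (-1.08 ± 0.28, adjusted p = 0.0318). Clec4f was not above background. The summed macrophage signal was 443.6 to 754.9 in EX BAT (median 536.5), against 598 to 2103 in WT BAT (median 999). With the macrophage level as a covariate, added after seeing the data, Plvap still passed (-1.04, adjusted p = 0.017) and Pecam1 B did not (-0.60, adjusted p = 0.114). Without it the differences were -0.98 and -0.63, so the size of Pecam1 B hardly changed. A covariate from the same arrays cannot decide the part of macrophages in these results. The summed myofibre signal ranged widely in both groups, 65.94 to 35270 in EX BAT and 28.7 to 8398 in WT BAT, none of its 7 genes passed, and its part in these results was not tested.

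Under caloric restriction 1 of these genes was called, Esm1 in eWAT, a call that some single arrays left out ended. Esm1 spanned 5.25 to 7.07 in CR eWAT (median 6.61), against 4.68 to 5.82 in WT eWAT (median 4.84). Of 6 CR animals 5 were above every WT animal, and the other was inside the WT range. The log2 difference was 1.33 ± 0.33 (SE, n = 6 each; limma, adjusted p = 0.0228), a level 2.52 times that of WT. In SIRT1Tg and EX eWAT it was at 4.62 to 6.05 and 4.73 to 5.68. All CR animals are of series B, and within series B the difference was 1.39 (adjusted p = 0.0353). This probe is dim, and its size depended on the background step: the difference was 0.84 with an offset of 50 (adjusted p = 0.0166), 0.54 with no background correction (adjusted p = 0.0152) and 0.37 in the deposited matrix (adjusted p = 0.0143). The call for Esm1 was lost without any 1 of 4 arrays, 2 of WT (adjusted p = 0.076 and 0.104) and 2 of CR (adjusted p = 0.0534 and 0.0577).

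**Figure D4:**
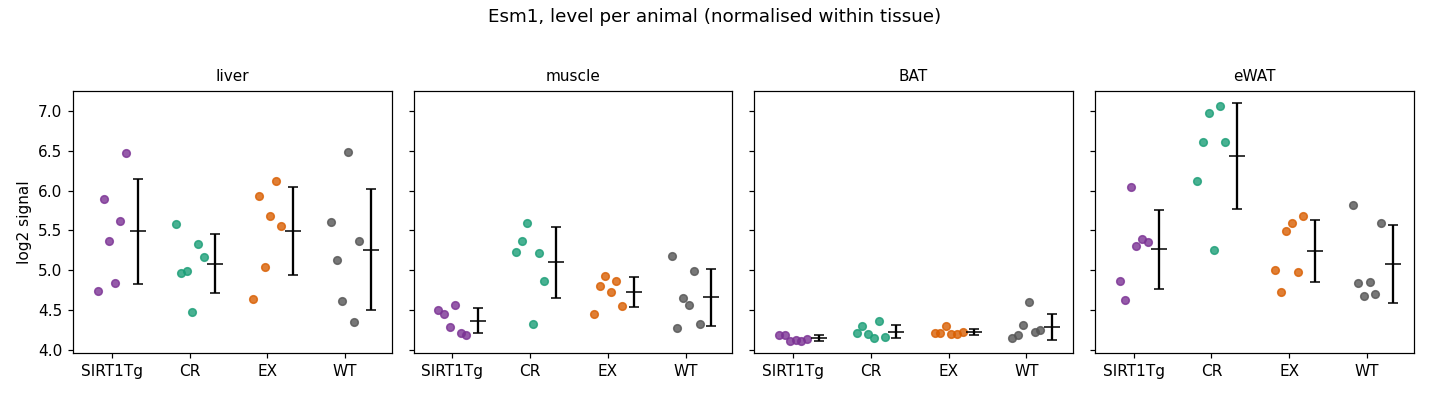
Log2 signal (vertical axis) of Esm1 in liver, muscle, BAT and eWAT of SIRT1Tg, CR, EX and WT mice, normalised within tissue. Points are single animals and bars are mean and SD, n = 6 per group. In eWAT 5 of 6 CR animals are above all WT animals; in BAT nearly all points lie at background.

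Of the 13 probes tested in CR eWAT 1 rose and none fell, where 3.3% of 15706 probes passed. The median of the 13 was 0.08, against 0.02 over all probes. Vegfa A was 0.48 ± 0.36 above WT (adjusted p = 0.634), and Flt1 A was at -0.04 ± 0.21 (adjusted p = 0.975). None of 17 endothelial identity genes passed (11 above WT, median 0.10), and of 12 Notch and tip cell genes 10 lay above WT (median 0.32) and none passed. Among 11 endothelial transcription factor genes 1 fell, Lmo2 (-0.73 ± 0.19, adjusted p = 0.0315), and 4 lay above WT. Among 9 genes listed for liver sinusoidal endothelium 2 fell, Fcgr2b (-1.11 ± 0.17, adjusted p = 0.00148) and Mrc1 (-1.22 ± 0.27, adjusted p = 0.013), and 2 lay above WT. Which cells of eWAT held Fcgr2b and Mrc1 RNA was not tested. Among pericyte and smooth muscle genes 1 of 11 fell, Acta2, smooth muscle actin (-1.45 ± 0.34, adjusted p = 0.0181), while 8 of the 11 lay above WT (median 0.05). The summed signal of this list, with Acta2 in it, was 4405 to 5731 in CR eWAT, against 6613 to 17150 in WT eWAT. The myofibre gene Acta1 also fell (-2.64 ± 0.61, adjusted p = 0.0161; 1 of 4). Of 5 lymphocyte genes 2 fell, Cd3g (-1.32 ± 0.29, adjusted p = 0.0124) and Cd3e (-0.99 ± 0.26, adjusted p = 0.0379), and none lay above WT. Their summed signal was 135.1 to 410.1 in CR eWAT (median 200.7), against 135.4 to 1740 in WT eWAT (median 429.7). The part of these genes in the Esm1 result was not tested. Macrophage genes were lower in CR eWAT: 4 of 6 fell, among them C1qb (-1.42 ± 0.29, adjusted p = 0.00788), and the summed signal was 2655 to 4168 in CR eWAT (median 3825), against 4574 to 10820 in WT eWAT (median 6942). With the macrophage level as a covariate, added after seeing the data, Esm1 was 1.74 above WT (adjusted p = 0.0295), and Tek (0.74, adjusted p = 0.0494) and Vegfb (0.85, adjusted p = 0.0327) passed as well. This covariate was the mean log2 level of the macrophage genes on each array, not their summed signal. The summed macrophage signals of CR and WT did not overlap. Macrophage genes fell along with restriction, so this fit cannot tell restriction from macrophage level. Epididymal genes reached 28790 in summed signal in single CR animals and 21430 in single WT animals, and with their level as a covariate Esm1 was 1.36 above WT (adjusted p = 0.00511).

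No tested probe of these genes passed in the other 9 comparisons under limma. In liver, none of 11 passed in SIRT1Tg (background 0.0454%, 1 at an unadjusted p under 0.05), CR (0.167%, 0 at unadjusted p) or EX mice (0.0151%, 0 at unadjusted p). In muscle, none of 11 passed in SIRT1Tg (0.0241%, 3 at unadjusted p) or CR mice (0%, 1 at unadjusted p). In BAT, none of 10 passed in SIRT1Tg (0.361%, 1 at unadjusted p) or CR mice (0.248%, 0 at unadjusted p). In eWAT, none of 13 passed in SIRT1Tg (0.0382%, 1 at unadjusted p) or EX mice (0.00637%, 0 at unadjusted p). These percentages are shares of all tested probes by adjusted p. At an unadjusted limma p under 0.05, all-probe shares in liver were 9.68% (SIRT1Tg), 6.37% (CR) and 8.62% (EX). They were 8.12% and 5.82% in SIRT1Tg and CR muscle, and 15.3% and 9.64% in SIRT1Tg and CR BAT. For eWAT they were 9.07% (SIRT1Tg) and 4.09% (EX).

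The SIRT1Tg values lay mostly above WT in muscle and eWAT. In SIRT1Tg muscle 10 of 11 probes lay above WT, with a median of 0.19, against 46.3% of all probes above 0. Flt1 A there spanned 8.76 to 9.45, against 8.52 to 8.90 in WT muscle, and 5 of 6 SIRT1Tg animals were above every WT animal (0.41, 95% interval 0.09 to 0.73, adjusted p = 0.563). Vegfa A was 0.53 above WT in SIRT1Tg muscle (0.01 to 1.05, adjusted p = 0.612). In SIRT1Tg eWAT 12 of 13 probes lay above WT, with a median of 0.26, against 47.3% of all probes above 0. Pecam1 B was 0.57 above WT there (0.14 to 0.99, adjusted p = 0.391) and passed with array weights (adjusted p = 0.0386). These 95% intervals are not adjusted for the number of probes tested. An unadjusted limma p under 0.05 was reached by 8.12% of all probes in SIRT1Tg muscle and 9.07% in SIRT1Tg eWAT. The SIRT1Tg and WT arrays of BAT, and likewise those of eWAT, shared no slide, so within these tissues group and slide cannot be told apart. In CR muscle 10 of 11 probes also lay above WT (median 0.11), with Vegfa A at 8.79 to 10.36, against 8.33 to 9.92 in WT muscle (0.57 ± 0.28, adjusted p = 0.855). These comparisons share their WT animals.

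**Figure D5:**
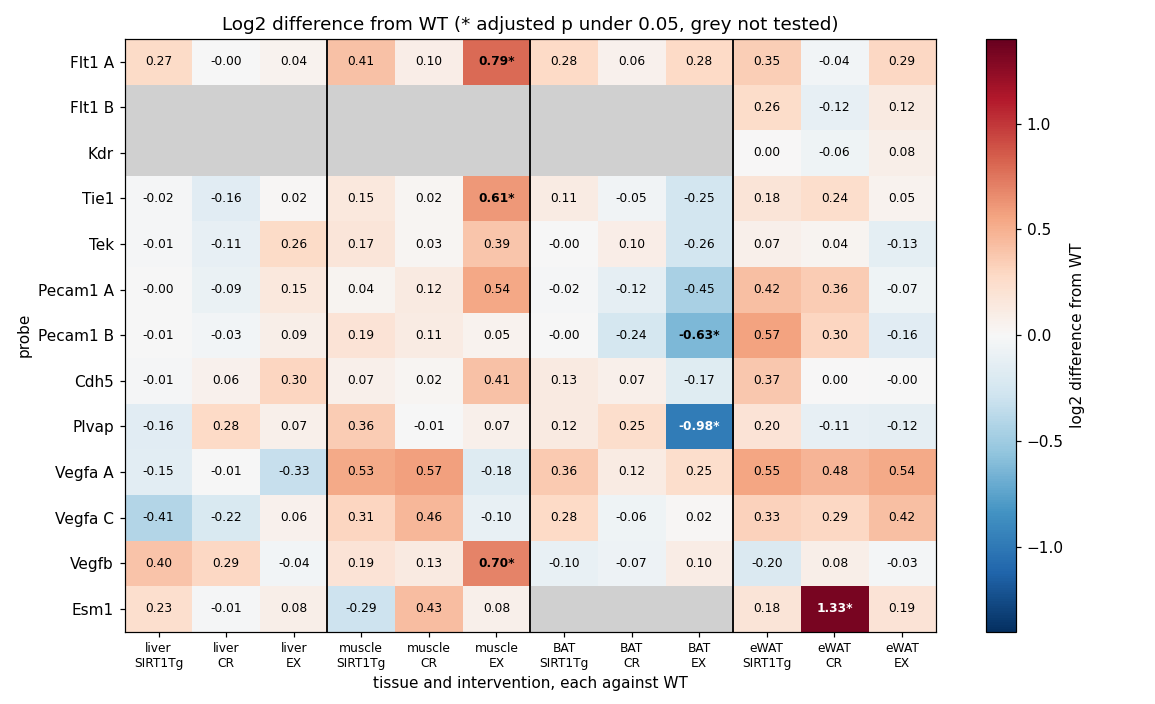
Log2 difference from WT (colour and printed value) of 13 probes (rows) in 12 comparisons (columns: liver, muscle, BAT and eWAT, each with SIRT1Tg, CR and EX). An asterisk marks an adjusted p under 0.05 and grey cells were not tested for want of detection. The 6 marked values are 3 in EX muscle, 2 in EX BAT and 1 in CR eWAT.

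Whether an effect differed between the 4 tissues was tested by a moderated F test in the fit over 96 arrays. None of 13 probes passed for SIRT1Tg, where 0.272% of all probes did. None passed for CR, where 2.3% did, and the smallest adjusted p was that of Esm1 (0.233). None passed for EX, where 0.673% did; Tie1 (adjusted p = 0.142) and Plvap (adjusted p = 0.156) came nearest. By F test, no probe's change is therefore shown to belong to 1 tissue. In the single contrast of the EX effect in muscle minus that in BAT, Tie1 was the 1 of 13 probes that passed (0.99 ± 0.26, adjusted p = 0.0467), where 0.641% of all probes did. It was the 1 call among 18 such contrasts (6 pairs of tissues for each of 3 interventions), each adjusted on its own. Its EX effect in this fit was 0.74 ± 0.18 in muscle and -0.25 ± 0.18 in BAT. For Plvap the same contrast was 1.04 ± 0.31 (adjusted p = 0.104) and for Pecam1 A 0.98 ± 0.33 (adjusted p = 0.162).

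Genes whose levels ran most like these over the 96 arrays, once each tissue mean was subtracted, are given as a description, since the points share RNA samples, arrays and group differences. For Flt1 A they were Adgrl4, an endothelial adhesion receptor (Pearson r = 0.77), Acer2 (0.76) and Mcf2l (0.75). For Tek they were Mmrn2, an endothelial matrix protein (0.81), Ap2a2 (0.73) and Bnip2 (0.70). Tie1 was nearest to Rgs5 (0.64), Mmrn2 (0.63) and Acads (0.62). Pecam1 A was nearest to Adgrl4 (0.63), Myo7a (0.62) and Adam15 (0.62), and Cdh5 to Pde2a (0.68), Ets1 (0.68) and Tcf4 (0.68). Plvap was nearest to Bgn, a matrix proteoglycan gene (0.68), and Vegfb to Sdhb, a subunit of mitochondrial succinate dehydrogenase (0.73). Vegfa A was nearest to Zc3h7a (0.71), Esm1 to Parp16 (0.51) and Kdr to Chchd2 (0.53). Kdr was detected on 19 of the 96 arrays and Esm1 on 65. Their likenesses thus rest in part, and for Kdr mostly, on values at background. Among the members themselves the closest pair was Pecam1 and Cdh5 (0.67), and Vegfa and Vegfb ran at -0.17. Probes of 1 gene did not run alike everywhere: Pecam1 A and B correlated at 0.87 over the 24 BAT arrays and at 0.51 over the 24 muscle arrays, and Vegfa A and C at 0.92 in eWAT and at 0.45 in BAT.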

How the data were processed

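Per the labels, RNA from Trizol extracts cleaned on RNeasy columns was labelled with biotin and hybridised to bead arrays. The deposited probe intensities are unnormalised; the submitters' processing notes name GenomeStudio and Partek without roles. The deposited matrix gives a log2 value for each of the 25697 probes; each of its columns ranked probes as its intensity column did (lowest Spearman correlation 1) and had a median of 6.72. It was used only as an alternative.

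With R 4.3.3 and limma 3.58.1, the mode of each array's log2 density served as its background level (bandwidth 0.03) because the file holds no detection p-values. Normexp correction (offset 16) and quantile normalisation within the tissue followed. Probes above the upper 0.05 tail of background on 6 or more arrays of a tissue were tested, 12447 to 15706 per tissue. limma models held intervention and number series, over the 24 arrays of a tissue; adjusted p under 0.05 (Benjamini-Hochberg over all tested probes) was the threshold. Tissue contrasts came from a fit over all 96 arrays. Summed list signals are background-corrected intensities with the offset removed. The number of arrays limits precision. Gene names came from RefSeq: a gene ID matched for 23962 probes, the platform's own symbol stayed on 16, and 1719 are unnamed here. Named are the members, Sirt1, up to 4 called genes of each list and the genes most like each member. Members and lists were chosen with earlier results of these data known. Animal numbers pair arrays of different tissues: deviations from group means correlated at a median of 0.07 between tissues of the same animal (135 pairs) and at -0.01 between other animals. Models were tested on simulated data with known changes. The alternatives were the matrix values, no background correction, an offset of 50, median scaling, other filters, 1 probe per gene, series left out or matched, slide or animal as a block, array weights, marker levels as covariates and single arrays left out. No columns of sample values were left unused.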

Additional observations from a re-analysis of the deposited data

Results flagged for a closer look

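In 21 of 180 groups of 6 arrays of a member probe, 1 animal stood farther from the others than Dixon's 95% limit allows; chance flags about 1 in 20 groups. The 21 came from 6 animals. In liver, 1 SIRT1Tg animal, whose array had the fewest detected probes, was low for Tek (4.33, others from 6.13), Pecam1 B (4.34, others from 4.98), Cdh5 (4.14, others from 4.55), Vegfa A (7.19, others from 8.73) and Vegfa C (4.16, others from 6.42). The same animal was high for Vegfa A (11.40, others up to 10.54) and Vegfa C (9.33, others up to 8.17) in eWAT and for Cdh5 in muscle (5.72, others up to 5.26).

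In eWAT, 1 CR animal, the one whose Esm1 was inside the WT range, was low for Tie1 (5.71, others from 6.48), Tek (7.53, others from 8.49), Vegfa C (6.64, others from 7.77) and Vegfb (10.37, others from 11.22), and in muscle for Vegfa A (8.79, others from 9.86). In eWAT, 1 EX animal was low for Pecam1 A (7.35, others from 8.31), Plvap (7.91, others from 9.19) and Vegfb (9.58, others from 10.74). Another SIRT1Tg animal was low for Vegfb in muscle (10.91, others from 11.13) and high for Kdr in eWAT (4.77, others up to 4.48). Of the WT animals, 1 was low for Plvap in muscle (6.50, others from 7.05), and another was low for Vegfa C in muscle (5.36, others from 6.14) and for Vegfb in BAT (10.71, others from 11.29).

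The EX effect on Tie1 differed between muscle and BAT (adjusted p = 0.0467 in limma's contrast of these effects, 1 of 18 such contrasts), while the F test over the 4 tissues did not pass (adjusted p = 0.142).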

How the results depend on the processing

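Across 116 alternatives 3978 values of single probes were recomputed; 3924 kept their direction and side of the threshold or were not called either way, 36 lost a call, 17 gained one and 1 reversed, and 315 values not called had the other sign. The reversal was Tie1 in WT BAT against eWAT, at -0.0939 under median scaling. The 3 probes called in EX muscle became 0 under median scaling, 1 with no detection filter and 0 with the slow fibre level as a covariate; single arrays left out gave 0 to 4, and Vegfb lost its call in the fit over 4 tissues without slide (0.66, adjusted p = 0.0577). The 2 called in EX BAT became 1 with 1 probe per gene, 1 without the number series term, 1 with the macrophage level as a covariate, 1 with slide as a fixed term and 1 in the fit over 4 tissues, and 2 to 3 with single arrays left out. The 1 called in CR eWAT became 3 with the macrophage covariate and 0 to 1 with single arrays left out, and the 0 in SIRT1Tg eWAT became 1 with array weights. Where no value above bears on it, the cause was not tested. Both macrophage covariates were added after the data were seen. Over its alternatives the adjusted p ran from 0.00161 to 0.998 for Vegfb, 0.00361 to 0.998 for Flt1 A and 0.00664 to 0.998 for Tie1 in EX muscle, from 0.000301 to 0.0305 for Plvap and 0.00391 to 0.643 for Pecam1 B in EX BAT, and from 0.000149 to 0.104 for Esm1 in CR eWAT. The 0.998 of each muscle probe came from the slow fibre covariate. With the animal as a replicate block (correlation 0.0333) the WT tissue pairs gave the same 6, 11, 10, 8, 8 and 4 probes by count, and no call changed. Median scaling moved the median of all probes to -0.10 in EX muscle, -0.16 in SIRT1Tg liver, 0.18 in EX liver and -0.10 in EX eWAT, and it called 16 of all probes in EX muscle, against 211. Dim probes (Tie1, Esm1, Cdh5) lie near the offset, which limits their measured differences.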
